A study of Mus musculus with 10 samples.

Results

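The accessible regions around 10 genes of cell junctions were described in the developing mouse heart: the desmosome genes Pkp2, Dsp, Jup, Dsg2 and Dsc2, the tight junction genes Tjp1, Ocln, Cldn1 and Cgn, and the polarity gene Pard3. ATAC-seq, which reads open chromatin by the insertion of a transposase, was given as 9 lists of peaks on mm10. A peak summit was taken as belonging to a gene when it lay inside the gene or within 25 kb of it, and as a promoter summit when it lay within 1 kb of the annotated start. The lists held 1071660 summits in all, of which 1298 fell to the 10 genes. Merged over libraries into regions that reach 250 bp to either side of a summit, these gave 222 of the 184764 regions of the series. By gene they numbered 12 for Pkp2, 13 for Dsp, 22 for Jup, 8 for Dsg2, 5 for Dsc2, 36 for Tjp1, 7 for Ocln, 6 for Cldn1, 13 for Cgn and 100 for Pard3, whose locus of 548.4 kb is by far the longest.

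The samples came from C57BL/6J embryos that carried Rosa26tdTomato and 1 Wt1CreERT2 allele. In this model a tamoxifen-activated Cre is driven from Wt1, and tamoxifen was given at E9.5, so that Wt1-expressing cells and their descendants turned red. The study's methods give this model and treatment for every group. They name either of 2 tdTomato alleles and mothers that were Rosa26tdTomato or C57BL/6J, so reporter copies may differ between embryos. Epicardial cells were sorted from dissociated hearts as CD31-tdTomato+PDPN+ at E11.5 (3 libraries, 6 hearts pooled for each) and at E17.5 (3 libraries, 4 hearts pooled for each). Epicardium-derived cells (EPDCs), the cells that have left the epicardial layer, were sorted as CD31-tdTomato+PDPN- at E12.5 (1 library) and E13.5 (2 libraries, of which 1 merges 2 technical replicates). A Cre driven from Wt1 can mark any cell that used Wt1 at the time of tamoxifen, and podoplanin alone split the labelled cells into the 2 populations. The EPDC and epicardial groups therefore differed in gate and in stage at once, and these cannot be told apart.

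Desmosomes rivet neighbouring epithelial cells together. The desmosomal cadherins desmoglein (Dsg2) and desmocollin (Dsc2) bridge the gap between cells, the armadillo proteins plakoglobin (Jup) and plakophilin (Pkp2) bind their tails, and desmoplakin (Dsp) ties this plaque to the keratin filaments. Tight junctions lie nearer the free surface and seal the space between cells. They are built of the membrane proteins occludin (Ocln) and claudins (Cldn1), the scaffold ZO-1 (Tjp1) and the cytoplasmic adaptor cingulin (Cgn), and PAR-3 (Pard3) helps to place them as part of the polarity complex. The epicardium is a single mesothelial sheet that carries such junctions, and cells that leave it by epithelial-to-mesenchymal transition (EMT) take their junctions apart. The comparisons addressed whether the chromatin of these genes differs between the sheet and the cells that left it, and between the early and the late sheet.

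Accessibility was compared as a percentile. The 94909 strongest summits of each list were ranked by the peak caller's -log10 p, with 100 as the strongest, and a region without a summit among them was set to 0. A value of 0 therefore means below this rank, not closed chromatin. The lists held 94909 to 142743 summits. Within a group the libraries correlated at Spearman's rho of 0.859 to 0.931 over the tested regions, and between groups at 0.464 to 0.679. The 3 EPDC lists also held 252 to 268 summits off the standard chromosomes, including 25 to 47 on the mitochondrial genome, where the 6 epicardial lists held 0. This difference in what the lists hold runs along with gate and stage, and these cannot be told apart. The 14 epicardial marker genes had a mean promoter percentile of 63.0 to 68.2 at E11.5, 79.9 to 82.0 at E17.5 and 52.7 to 63.1 in EPDCs, and 7 of their promoters were lower and 0 higher in EPDCs, where 15.8% and 14.1% of all tested promoter regions were. Of these 7, Msln and Krt19 had summits in the E17.5 lists alone and stood at 0 at E11.5 as in EPDCs. Their calls therefore follow from E17.5 and do not separate EPDCs from the E11.5 epicardium. The 13 mesenchymal markers stood at 80.2 to 82.0 in EPDCs and at 65.6 to 70.4 in the epicardium, with 7 promoters higher and 1 lower in EPDCs. Of 11 endothelial markers, 4 had no promoter region at all (Pecam1, Cdh5, Tie1 and Emcn) and the list mean was 29.1 to 31.5 at E17.5, 29.7 to 33.4 at E11.5 and 34.3 to 36 in EPDCs. Of the 6 endothelial promoters tested, 3 were higher in EPDCs (Kdr by 4.76, Sox18 by 19.4 and Cldn5 by 9.99 points) and 0 lower, and 1 (Erg) was lower at E17.5. The 11 cardiomyocyte markers averaged 22.9 to 33.7, with no promoter region at Myh6 or Myl2, and went both ways. At E17.5, Myl7 (55.25) and Myh7 (34.9) were higher than at E11.5, and Tnnt2 (-26.15) and Actn2 (-12.15) lower. In EPDCs, Myl7 (-36.25) and Myh7 (-19.8) were lower and Actn2 (3.99) higher. The 10 blood markers averaged 5.0 to 14.6, and 8 of them, Ptprc among these, had no promoter region. Among the rest, Cd68 was lower in EPDCs (difference -47.6, adjusted p = 0.000437) and higher at E17.5 (difference 35.02, adjusted p = 0.00497). The part of other cell types in the results that follow was not tested.

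Of the 222 regions, 163 were intronic, 15 lay in an exon or an untranslated region and 44 were intergenic, and 20 lay within 1 kb of the start of their gene. 7 of them show best how the groups differed. The first 3 lost rank in EPDCs, the fourth was strong only at E17.5, the fifth was strong in EPDCs and at 0 at E17.5, the sixth was strong only in EPDCs but lies in duplicated sequence, and the last stood high in all 9 libraries. The central 201 bases of each are given on the plus strand of GRCm38.p6 (RefSeq), the assembly of mm10, with capitals for matches to any of 7 motifs searched on both strands. The full T-box motif was searched as AGGTGTGA. The first letters of that motif, AGGTGT, were also searched alone as a shorter T-box match that overlaps the full one. AP-1, the dimer of Fos and Jun proteins, was searched as TGANTCA. TEAD factors, which act with the Hippo pathway, were searched as GGAATG. WT1, the epicardial zinc finger factor, was searched as GCGTGGG. The GATA factors of the heart were searched as AGATAAG. The E-box read by basic helix-loop-helix factors was searched as CAGCTG.
Pkp2 intronic element, chr16:16256751-16256951: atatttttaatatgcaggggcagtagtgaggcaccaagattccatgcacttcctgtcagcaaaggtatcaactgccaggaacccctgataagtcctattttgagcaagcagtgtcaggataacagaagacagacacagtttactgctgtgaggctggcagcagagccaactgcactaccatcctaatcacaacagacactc
Pkp2 intronic region near the start, chr16:16217033-16217233: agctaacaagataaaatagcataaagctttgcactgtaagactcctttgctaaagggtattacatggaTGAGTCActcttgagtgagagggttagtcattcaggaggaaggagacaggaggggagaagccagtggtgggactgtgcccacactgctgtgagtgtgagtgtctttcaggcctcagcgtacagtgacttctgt
Tjp1 intronic region, chr7:65469796-65469996: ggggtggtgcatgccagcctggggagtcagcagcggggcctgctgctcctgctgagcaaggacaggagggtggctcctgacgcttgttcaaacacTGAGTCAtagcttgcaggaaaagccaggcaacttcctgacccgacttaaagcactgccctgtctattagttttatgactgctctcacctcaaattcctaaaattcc
Ocln intronic region, chr13:100516757-100516957: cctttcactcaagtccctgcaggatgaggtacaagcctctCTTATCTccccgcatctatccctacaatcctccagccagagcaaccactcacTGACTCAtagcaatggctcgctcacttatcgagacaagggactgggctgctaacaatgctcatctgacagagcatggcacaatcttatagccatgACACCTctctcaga
Jup intronic region, chr11:100391262-100391462: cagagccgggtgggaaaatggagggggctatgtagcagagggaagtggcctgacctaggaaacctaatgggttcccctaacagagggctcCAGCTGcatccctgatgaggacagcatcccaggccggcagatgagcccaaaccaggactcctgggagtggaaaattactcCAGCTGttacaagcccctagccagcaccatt
Region downstream of Cgn, chr3:94758115-94758315: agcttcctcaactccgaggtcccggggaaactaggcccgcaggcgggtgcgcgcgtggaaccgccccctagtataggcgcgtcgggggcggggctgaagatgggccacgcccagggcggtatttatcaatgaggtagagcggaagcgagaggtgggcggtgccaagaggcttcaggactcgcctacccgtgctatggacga
Dsp intronic region, chr13:38162747-38162947: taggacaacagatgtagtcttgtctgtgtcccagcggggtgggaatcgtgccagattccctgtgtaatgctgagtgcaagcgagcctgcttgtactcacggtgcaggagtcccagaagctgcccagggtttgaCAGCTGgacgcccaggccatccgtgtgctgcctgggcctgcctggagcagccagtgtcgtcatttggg

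Between EPDCs and epicardium, more regions of the junction genes were lower in EPDCs than higher. Of the 222 regions, 153 had a summit in at least 3 of the 9 lists and were tested, and 69 were not. With limma over all tested regions of the genome and an adjusted p under 0.05, 42 of the 153 (27.5%) were lower in EPDCs, where 23.0% of all 130905 tested regions were. A further 21 (13.7%) were higher, against 21.1% of all regions. The median difference, EPDC minus the mean of both epicardial stages, was -4.25 percentile points over the 153 regions and -0.81 over all regions. The desmosome genes gave 14 lower and 7 higher among 48 tested regions, and the tight junction and polarity genes 28 lower and 14 higher among 105. Many of these differences reached the floor of the scale, since all 3 EPDC libraries were at 0 in 23 of the 42 lower regions and all 6 epicardial libraries in 7 of the 21 higher ones. A region that passed the filter through 1 group alone had to differ, so the regions with a summit in every list are the stricter count. For the same reason no test is printed for a single region that was at 0 in every library on the lower side of a comparison and passed the filter only through the group where it was high. Among these 44, 9 were lower (20.5%, against 22.8% of all such regions) and 6 higher (13.6%, against 21.4%), so that the share of lower regions was near the background. Taken against each epicardial stage alone, 16 of the 42 lower and 12 of the 21 higher regions were called in the same direction both times. All EPDC libraries lay below all epicardial ones in 19 of the 153 regions, as in 9.96% of all regions, and above them in 14, as in 15.6% of all. In bulk cells, fewer cells with an open region and a less open region in every cell cannot be told apart.

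**Figure D1:**
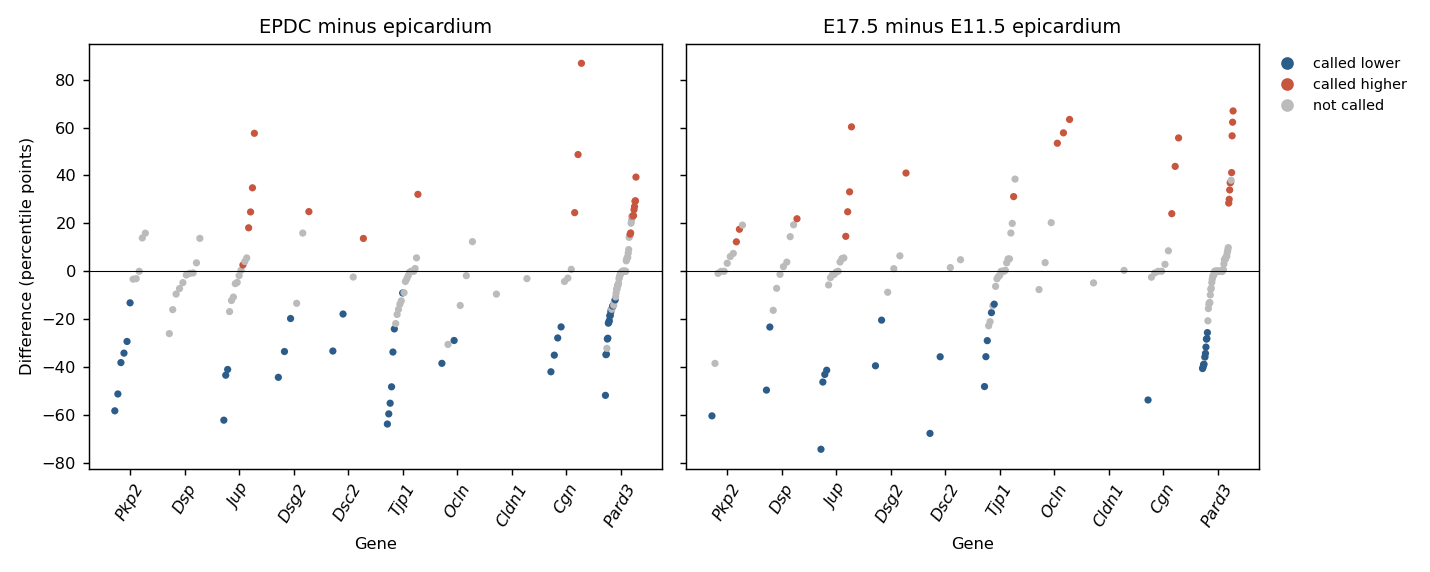
Difference in accessibility percentile for each tested region of the 10 genes, with 1 point per region ordered by size within its gene. The left panel shows EPDC minus epicardium, where the 6 called regions of Pkp2 all lie below 0, and the right panel shows E17.5 minus E11.5 epicardium. Blue and red points passed limma at an adjusted p under 0.05 and grey points did not.

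Pkp2 encodes plakophilin-2, which clusters desmoplakin and the desmosomal cadherins. It lies at chr16:16213318-16272712 on the plus strand. Of its 11 tested regions, 6 were lower in EPDCs and 0 higher, where 23.0% and 21.1% of all regions were, and 2 of the 6 passed the filter through the epicardium alone. The lists held 9 to 13 Pkp2 summits in the epicardium and 7 to 11 in EPDCs. Of the 6, 5 are intronic and 1 lies upstream of the gene. The intronic element that the study links to Pkp2 was read as the region at chr16:16256601-16257101, 43.5 kb downstream of the start. Its percentiles were 67.5, 74.9 and 72.9 at E11.5, 72.4, 72.8 and 70.0 at E17.5, 34.9 in the E12.5 EPDC library and 15.8 and 10.9 in the E13.5 EPDC libraries. All 6 epicardial libraries thus stood above every EPDC library, and the E12.5 library was the highest of the 3. The difference was -51.2 (SE 5.15, adjusted p = 0.00022), and the two-sided exact permutation test gave p = 0.0238, the smallest value it can give with 3 libraries against 6. Over background, the peak caller's fold enrichment at the element was 6.88 to 10.6 in the epicardium and 4.71 to 5.78 in EPDCs, so a peak was still called there in all 3 EPDC lists. Between E11.5 and E17.5 the element differed by -0.06 points (SE 5.95, adjusted p = 1.0).

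Nearer the promoter, an intronic region 3.82 kb from the start (chr16:16216883-16217383) stood at 52.4, 52.7 and 43.3 at E11.5, at 61.8, 73.9 and 65.3 at E17.5 and at 0 in all 3 EPDC libraries, with no EPDC summit of any strength. Its neighbour 2.86 kb from the start was at 36.1, 19.98 and 29.1, then 53.4, 53.0 and 36.5, and in EPDCs at 14.3, 11.9 and 0 (difference -29.3, SE 5.92, adjusted p = 0.00607). That call was lost when ranked by fold enrichment, and against E11.5 alone the difference was -19.66 (adjusted p = 0.0677). The strongest Pkp2 region, 11.3 kb into the gene, kept a high rank in EPDCs at 86.7, 77.9 and 83.2, but below the 93.2 to 95.1 of E11.5 and the 97.3 to 97.7 of E17.5 (difference -13.2, SE 1.73, adjusted p = 0.000808). A region -11.1 kb from the start was at 31.4 to 43.4 in the epicardium and at 0 in EPDCs, and 25.5% of its 31-base words recur elsewhere in the genome. The sixth, 40.5 kb into the gene, was at 71.4 to 77.6 at E11.5, 34.1 to 41.3 at E17.5 and 52.8, 0 and 12.1 in EPDCs, so the groups overlapped (difference -34.2, SE 10.7, adjusted p = 0.0376). Its call was lost when any single library other than that of E12.5 was left out, and against E17.5 alone the difference was -14.94 (adjusted p = 0.385). By contrast the Pkp2 promoter itself did not pass the test between EPDCs and epicardium. It stood at 68.6, 73.3 and 70.0 at E11.5, at 84.3, 80.5 and 84 at E17.5 and at 81.5, 66.4 and 72.6 in EPDCs (difference -3.29, SE 3.14, adjusted p = 0.44). Ranked by fold enrichment instead, it was called higher in EPDCs (difference 18.5, adjusted p = 0.0257), and without the E12.5 library it was called lower (difference -7.28, adjusted p = 0.0387).

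**Figure D2:**
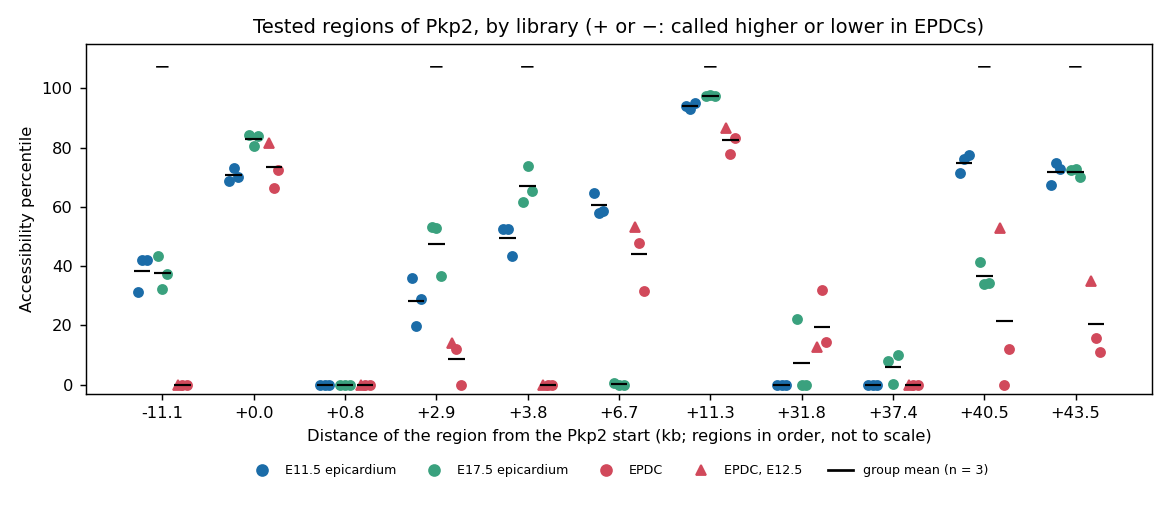
Accessibility percentile of the 11 tested Pkp2 regions in each library, ordered by distance from the start of the gene in kb. Points are libraries (blue E11.5, green E17.5, red EPDC, with a triangle for E12.5), black bars are means of 3, and a minus sign marks the 6 regions called lower in EPDCs, including the intronic element at 43.5 kb.

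Jup encodes plakoglobin, the armadillo protein shared by desmosomes and adherens junctions, and lies at chr11:100368958-100397763 on the minus strand. Of 17 tested regions 5 were higher and 3 lower in EPDCs, where 21.1% and 23.0% of all regions were. Among the higher ones, those at 6.40 and -5.98 kb passed against each epicardial stage alone. Those at 21.6 and -10.5 kb did not pass against E11.5 alone (differences -4.97 and 3.23, adjusted p = 0.678 and 0.623). The call at 21.6 kb was kept in 3 of 15 alternatives. An intronic region 6.40 kb from the start (chr11:100391112-100391612) differed in both comparisons. It was at 79.7, 71.1 and 72.0 at E11.5, at 0 in all 3 E17.5 libraries and at 95.2, 94.2 and 94.8 in EPDCs. EPDCs stood above both stages (difference 57.6, SE 2.07, adjusted p = 1.77e-06), and E17.5 minus E11.5 was -74.3 (SE 2.39, adjusted p = 3.2e-06). Ranked by fold enrichment, the stage difference at this region was no longer called. On the other side, a region 3.74 kb from the start was at 33.5 to 39.0 at E11.5, at 48.0 to 53.6 at E17.5 and at 0 in EPDCs, with a fold enrichment of at most 2.78. The region 1.91 kb from the start was at 0, 16.9 and 15.6 at E11.5 and at 64.9, 75.4 and 73.0 at E17.5, and again at 0 in EPDCs. Its stage difference was 60.3 (SE 5.31, adjusted p = 0.00015). At both of these regions the call between EPDCs and epicardium was lost when ranked by fold enrichment. The region at -14.3 kb was at 50.1 to 71.7 in the epicardium and 0 in EPDCs, but it lies in an intron of the neighbouring gene P3h4. The region at -17.0 kb, called higher by 2.64 points (SE 0.84, adjusted p = 0.0402), is the shared promoter of P3h4 and Fkbp10, and it lost the call without any 1 library except E11.5 replicate 2. The Jup promoter was among the strongest regions in every library, at 95.05 to 98.97, and the difference of 0.41 (SE 0.85, adjusted p = 0.729) was below its error.

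**Figure D3:**
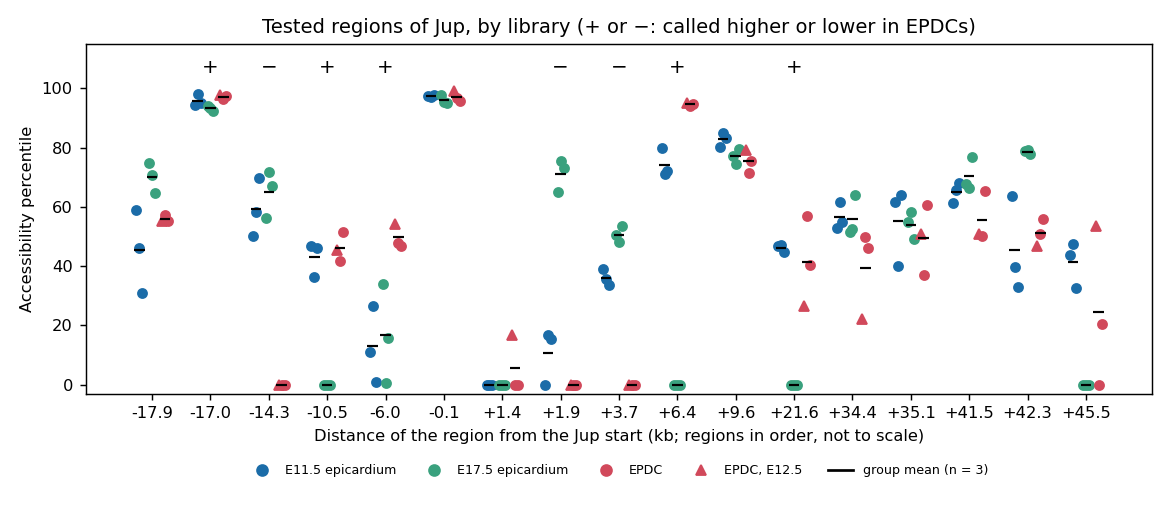
Accessibility percentile of the 17 tested Jup regions in each library, ordered by distance from the start of the gene in kb. Points are libraries (blue E11.5, green E17.5, red EPDC, with a triangle for E12.5) and black bars are means of 3. Plus and minus signs mark the 5 regions called higher and the 3 called lower in EPDCs, with the widest spread between groups at 6.40 kb.

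Dsp encodes desmoplakin, the link from the plaque to keratin, and lies at chr13:38151294-38198577 on the plus strand. None of its 10 tested regions passed the test between EPDCs and epicardium, where 23.0% of all regions were lower and 21.1% higher. The differences ranged from -26.0 to 13.7 points. The strongest within the gene, at 11.6 kb, stood at 92.3, 93.1 and 94.96 at E11.5, at 94.5, 93.01 and 88.95 at E17.5 and at 90.02, 91.9 and 94.4 in EPDCs. Between the epicardial stages 1 of the 10 was higher at E17.5 and 2 were lower, near the 14.9% and 17.7% of all regions. A region 19.6 kb into the gene was at 91.8, 92.9 and 88.7 at E11.5 and at 68.1, 66.3 and 69.2 at E17.5 (difference -23.3, SE 2.62, adjusted p = 0.000502), and at 80.8, 71.2 and 72.2 in EPDCs. Its region at -24.5 kb was at 42.3, 49.1 and 57.4 at E11.5 and at 0 at E17.5.

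The desmosomal cadherins Dsg2 and Dsc2 lie on chromosome 18, at 20558074 to 20604521 and at 20030633 to 20059554. An intronic Dsg2 region 8.60 kb from the start was at 65.9, 65.2 and 62.0 at E11.5, at 58.6, 68.1 and 69.6 at E17.5 and at 36.8, 18.01 and 7.15 in EPDCs. The groups did not overlap, and the difference was -44.3 (SE 6.26, adjusted p = 0.00115). A region at -3.53 kb was at 35.7 to 55.04 at E11.5, 38.1 to 39.9 at E17.5 and 29.6, 0 and 0 in EPDCs (difference -33.5, SE 7.85, adjusted p = 0.0116), although it was not called without E13.5 EPDC replicate 1 or when ranked by fold enrichment. The region at -5.09 kb went the other way, at 66.8, 71.4 and 59.2, then 53.1, 33.1 and 50.01, and in EPDCs at 84.8, 80.9 and 75.8 (difference 24.9, SE 5.05, adjusted p = 0.00615), but against E11.5 alone the difference was 14.7 and was not called (adjusted p = 0.0986). Downstream of Dsg2, at 51.6 kb, a region was at 36.6, 43.6 and 38.1 at E11.5 and at 0 in the other 6 libraries. For Dsc2, 2 of 4 tested regions were lower and 1 higher (23.0% and 21.1% of all regions were), but against E17.5 alone the differences of the 2 were 0 and 0.55 (adjusted p = 1.0 and 0.97). The region at -0.68 kb, a second summit near the start, was at 65.3, 69.3 and 68.4 at E11.5, at 0 at E17.5 and at 1.65, 0 and 0 in EPDCs, so that E11.5 stood above all other libraries. The main Dsc2 promoter region, 0.46 kb into the gene, was the only call between EPDCs and epicardium among the strongest promoter regions of the 10 genes. It stood at 64.5 to 72.0 at E11.5, 66.0 to 72.3 at E17.5 and 84.05, 78.96 and 82.6 in EPDCs (difference 13.7, SE 2.24, adjusted p = 0.00229).

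**Figure D4:**
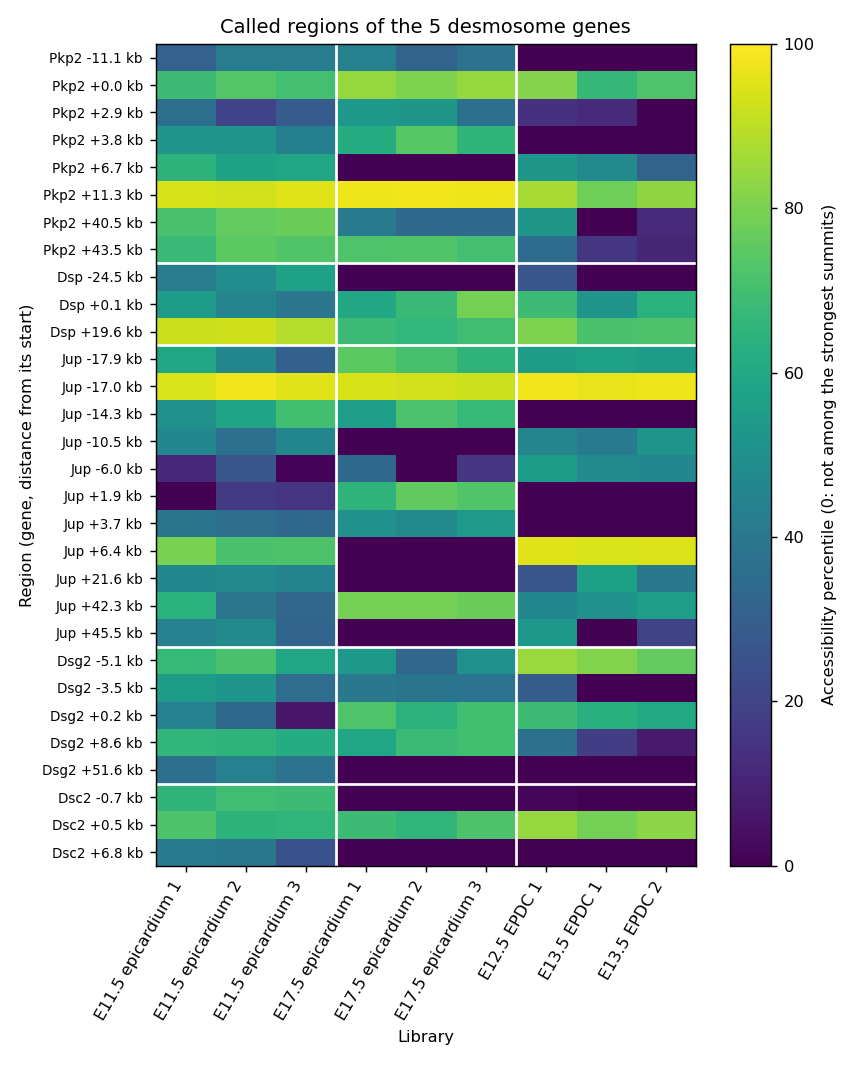
Accessibility percentile of the 30 desmosome gene regions called in either comparison, with 1 row per region labelled by gene and distance from its start in kb, and 1 column per library. Yellow is the strongest and dark violet is 0. The Pkp2 and Dsg2 regions at 43.5 and 8.60 kb are bright in all 6 epicardial columns and darker in the 3 EPDC columns.

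Taking the strongest promoter region of each of the 10 genes, 0 were lower in EPDCs, where 15.8% of the 13362 tested promoter regions of the genome were, and 1 was higher, against 14.1%. Beside these strongest regions, the ones of Dsc2 at -0.68 kb and of Pard3 at 0.47 kb were lower in EPDCs, but the Dsc2 region did not pass against E17.5 alone and the Pard3 call was lost in most alternatives. The counts of 0 and 1 depend on the setting. By interval overlap Ocln was called lower (difference -20.5, adjusted p = 0.0386), and ranked by fold enrichment Pkp2, Dsg2 (difference 31.7, adjusted p = 0.00444) and Cgn (difference 14.2, adjusted p = 0.00425) were called higher. Against E11.5 alone Dsg2 was called higher as well (difference 36.4, adjusted p = 0.0181), and leaving out 1 E11.5 library called Dsg2 (difference 10.5, adjusted p = 0.0467) or Pard3 (difference 5.79, adjusted p = 0.0456) higher. Between the epicardial stages 4 promoters were higher at E17.5 (13.4% of all promoter regions were) and 0 lower (10.5%). These 4 were Pkp2, Dsp, Dsg2 and Ocln, and for each the 3 libraries of E17.5 lay above the 3 of E11.5, for which an exact permutation test cannot go below p = 0.1. The Pkp2 promoter rose by 12.3 points (SE 3.63, adjusted p = 0.0378). The Dsp promoter went from 55.5, 45.4 and 39.8 to 59.8, 67.6 and 79.0 (difference 21.9, SE 6.66, adjusted p = 0.0422), and the Dsg2 promoter from 43.5, 33.8 and 6.23 to 72.4, 64.3 and 69.8 (difference 41.0, SE 8.88, adjusted p = 0.0108). By percentile within each library's own list the differences were 6.35 for Pkp2 (adjusted p = 0.149) and 10.1 for Dsp (adjusted p = 0.236), both no longer called, and 24.3 for Dsg2 (adjusted p = 0.00749). The calls for Pkp2 and Dsp did not hold in most fits that left out an epicardial library, where the adjusted p ranged up to 0.108 and 0.125. With the replicate number as a block, Pkp2 (adjusted p = 0.0639), Dsp (0.213) and Dsg2 (0.0949) lost the call and Ocln kept it (0.0446). The Ocln promoter has 3 neighbouring summits, and the one at -0.47 kb was at 0, 0 and 39.2 at E11.5 and at 67.7, 53.8 and 78.1 at E17.5 (difference 53.4, SE 14.95, adjusted p = 0.0307), and when 1 epicardial library was left out its adjusted p ranged up to 0.0994. When any overlapping peak interval was counted, so that a shift between these summits no longer matters, the Ocln difference was 13.8 and was not called (adjusted p = 0.215). The counts of 4 and 0 between stages depend on the setting too. Ranked by fold enrichment, the Dsc2 promoter was called higher at E17.5 (difference 34.3, adjusted p = 0.000597). The Cgn promoter was called lower at E17.5 in 1 alternative and the Pard3 promoter in 2. Between the same stages 2 cardiomyocyte marker promoters were higher at E17.5 and 2 lower, and of the 14 epicardial ones 4 were higher and 2 lower. Their part in these differences was not tested. Cgn and Cldn1 promoters held a high rank throughout, at 95.7 to 97.9 and at 79.3 to 85.9, and that of Pard3 was at 81.6 to 93.9. Tjp1 stood lower, at 48.9 to 72.3.

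**Figure D5:**
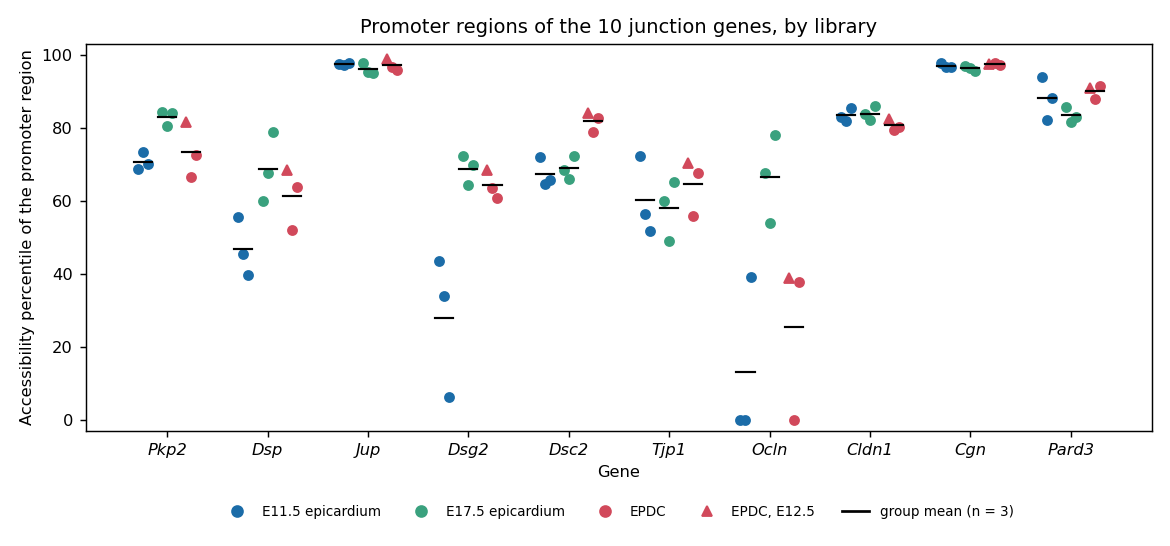
Accessibility percentile of the promoter region of each of the 10 genes in every library. Points are libraries (blue E11.5, green E17.5, red EPDC, with a triangle for E12.5) and black bars are means of 3. The E17.5 points lie above the E11.5 points for Pkp2, Dsp, Dsg2 and Ocln, and for Dsc2 the EPDC points lie above all others.

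Tjp1 encodes the scaffold ZO-1 and lies at chr7:65296165-65527781 on the minus strand, and of its 23 tested regions 7 were lower and 1 higher in EPDCs, where 23.0% and 21.1% of all regions were. The number of Tjp1 summits was 20 to 34 in the epicardial lists and 10 to 20 in the EPDC lists. An intronic region 148 kb from the start (chr7:65379289-65379789) was at 70.2, 71.9 and 69.7 at E11.5, at 56.5, 56.3 and 57.9 at E17.5 and at 0 in EPDCs. Another, 57.9 kb from the start (chr7:65469646-65470146), was at 72.7, 79.4 and 65.2, then 94.0, 91.5 and 91.7, and in EPDCs at 48.8, 4.75 and 15.2 (difference -59.5, SE 9.14, adjusted p = 0.0017). It had a summit in all 9 lists, and its fold enrichment was 8.12 to 18.5 in the epicardium and 3.99 to 7.52 in EPDCs. The 1 region higher in EPDCs, 110 kb from the start, was at 35.5 to 45.1, then 19.2 to 24.6, and at 56.8 to 66.7 in EPDCs (difference 32.1, SE 3.39, adjusted p = 0.000277). At E11.5 alone, a region at -19.3 kb was at 47.7, 41.9 and 54.7, with no summit in the other 6 lists.

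Ocln, which encodes occludin, had intronic regions that stood higher at E17.5. It lies at chr13:100496507-100552718 on the minus strand. The region 35.9 kb from the start (chr13:100516607-100517107) was at 6.18, 0 and 14.0 at E11.5 and at 72.7, 62.7 and 74.9 at E17.5 (difference 63.4, SE 4.78, adjusted p = 7e-05). Its neighbour 26.4 kb from the start was at 0 at E11.5 and at 65.2, 47.9 and 60.2 at E17.5, with summits in these 3 lists alone. Neither had a summit of any strength in EPDCs, and EPDC values were 0 at both. For Cldn1, which encodes claudin-1, the promoter and a region at -18.4 kb were the only tested regions, and neither passed in either comparison.

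Cgn encodes cingulin and lies at chr3:94760069-94786492 on the minus strand. Of its 10 tested regions 4 were lower and 3 higher in EPDCs, where 23.0% and 21.1% of all regions were. A region at -17.8 kb was at 84.4 to 85.9 at E11.5, 87.25 to 89.4 at E17.5 and 58.6, 39.6 and 36.3 in EPDCs (difference -41.95, SE 4.61, adjusted p = 0.000337). Inside the gene, the region 3.35 kb from the start was at 52.4, 52.9 and 61.7 at E17.5 and had no summit in the other 6 lists. The 3 Cgn regions that were higher in EPDCs are uncertain. One of them, 28.3 kb from the start, was at 0 in all 6 epicardial libraries and at 84.5, 89.4 and 86.5 in EPDCs. It had a summit in the 3 EPDC lists alone. Of its 471 words of 31 bases, 422 (89.6%) occur a second time in the genome, at chr3:94658655-94659155. The region lies within 1 kb of the start of the pseudogene Gm15264, and the copy within 1 kb of the start of Tuft1. At the copy, too, the epicardial libraries were at 0 and the EPDC libraries at 86.1, 87.2 and 86.5. Reads that lie wholly within the repeated words cannot be assigned to either copy, and the study's methods remove reads that map more than once. The region 21.8 kb from the start was likewise present in EPDCs alone, at 54.8, 44.9 and 46.5, and 69.0% of its words recur, with its copy at 52.6, 34.2 and 43.8 in EPDCs. The third, 20.8 kb from the start, was at 45.6 to 61.4 at E11.5, 0 at E17.5 and 41.2 to 59.5 in EPDCs, and 41.6% of its words recur. Its copy was at 68.2 to 75.06 at E11.5, 0 to 11.45 at E17.5 and 72.95 to 76.82 in EPDCs. Whether handling of such reads differed between the lists was not tested. Without regions in which more than 10% of words recur, 40 regions remained lower and 18 higher in EPDCs.

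Pard3 encodes PAR-3, the scaffold of the apical polarity complex, and lies at chr8:127063893-127612286 on the plus strand. It held 100 of the 222 regions, 64 of them tested, with 15 regions lower and 10 higher in EPDCs, where 23.0% and 21.1% of all regions were. Several of these calls did not hold against each epicardial stage alone. EPDC minus E11.5 and EPDC minus E17.5 were -24.7 and 0.89 at 16.6 kb, and -1.16 and -68.1 at 376 kb. At 212 kb they were -48.6 and -54.9. The lists held 33 to 63 Pard3 summits in the epicardium and 34, 48 and 76 in EPDCs. The region 212 kb from the start (chr8:127276026-127276526) was at 54.6, 58.7 and 63.2 at E11.5, at 67.8, 63.6 and 64.0 at E17.5 and at 5.65, 1.89 and 23.0 in EPDCs (difference -51.8, SE 4.87, adjusted p = 0.000158). In the opposite direction, the region 523 kb from the start was at 52.4, 31.4 and 34.1 in EPDCs and at 0 in the epicardium. It too had a summit in the EPDC lists alone. Between the stages, 9 Pard3 regions were higher at E17.5 and 10 lower, near the 14.9% and 17.7% of all regions. The region 376 kb from the start was at 3.49, 0 and 0 at E11.5 and at 66.7, 67.5 and 70.0 at E17.5 (difference 66.9, SE 2.5, adjusted p = 3.45e-06), and it was at 0 in EPDCs. The one 164 kb from the start was at 0 at E11.5 and at 59.5, 63.4 and 63.8 at E17.5, with EPDC values of 0, 58.7 and 61.8.

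Over all 10 genes, 24 tested regions (15.7%) were higher at E17.5 than at E11.5, where 14.9% of all regions were, and 27 (17.6%) were lower, where 17.7% were. Both shares were near the background. In the 44 regions with a summit in every list, 6 were higher (13.2% of all such regions were) and 4 lower (21.1%). In 9 of the 24 regions all E11.5 libraries were at 0, and in 16 of the 27 all E17.5 libraries were. Of the 42 regions lower in EPDCs, 10 were also lower at E17.5 than at E11.5 and 16 were higher. Both comparisons use the epicardial libraries, so these counts share samples. A region with summits at a single stage can be called both lower in EPDCs and different between stages, as at 26.4 kb in Ocln. Part of this overlap is therefore built in, and its share over all regions of the genome was not counted. At Pkp2, the region 6.65 kb from the start was at 64.7, 58.1 and 58.7 at E11.5 and at 0.51, 0 and 0 at E17.5 (difference -60.3, SE 5.59, adjusted p = 0.000192), while EPDCs were at 53.1, 48.0 and 31.7. Ranked by fold enrichment this stage difference was not called. Against E17.5 alone EPDCs were higher there by 44.1 points (SE 5.59, adjusted p = 0.000597), and against E11.5 alone the difference was -16.3 (SE 5.59, adjusted p = 0.065).

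The single E12.5 EPDC library stood above the E13.5 EPDC libraries at many of the lower regions. Of the 42, 19 had a value above 0 in some EPDC library. In 17 of these 19 the E12.5 value was above both E13.5 values, and in 0 it was below both. At the Pkp2 element, for example, the values were 34.9 against 15.8 and 10.9. Across the 21 regions higher in EPDCs no such order was seen, with the E12.5 value above both in 11 and below both in 9. Among all regions of the genome lower in EPDCs, the order of E12.5 above E13.5 was not counted. It therefore cannot be called particular to the junction genes. Over all tested regions of the genome the E12.5 library correlated with the E11.5 epicardium at 0.676 to 0.679 and the E13.5 libraries at 0.583 to 0.601. With 1 library at E12.5 this is a description without a test, and leaving it out gave 46 lower and 25 higher regions.

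In the 201 bases around the region centres, the AP-1 motif TGANTCA was found in 12 of the 42 regions lower in EPDCs (28.6%), in 1 of the 21 higher ones (4.8%) and in 21010 of all 130905 tested regions (16%). Among the 153 tested regions of the junction genes it was in 27 (17.6%). Its share among all regions of the genome lower in EPDCs was not counted. AP-1 is the motif in capitals in the sequences of the Pkp2 region near the start and the Tjp1 region. In the Ocln sequence the 3 stretches in capitals are, in order, a GATA match on the minus strand, an AP-1 match and a match to the shorter T-box letters on the minus strand, and in the Dsp sequence the capitals mark an E-box. The T-box sequence AGGTGTGA was in 0 of the 42 and in 0.7% of all regions, and its part AGGTGT in 6 of the 42 (14.3%) and in 7.8% of all. None of the 7 motifs was found in the central window of the Pkp2 element, which says only that these letters are not there. The TEAD motif was in 8 of the 42 (19%, against 19.5% of all), the GATA motif in 3 (7.1%, against 6.0%), the WT1 motif in 2 (4.8%, against 2.7%) and the E-box in 6 (14.3%, against 19.6%). In the 21 higher regions the E-box was in 6 (28.6%), and 2 of its matches stand in capitals in the Jup region. A match is a run of letters and not a measured binding site.

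Other genes of the same structures were read at their promoters. Of 10 other desmosome genes, 7 had a tested promoter region, of which 4 were lower and 0 higher in EPDCs, where 15.8% and 14.1% of all promoter regions were. Evpl, which encodes the plaque protein envoplakin, was at 73.7 to 81.9 at E11.5, at 98.0 to 99.1 at E17.5 and at 4.2, 21.0 and 16.9 in EPDCs (difference -73.6, SE 3.78, adjusted p = 9.8e-06). Pkp1, a further plakophilin, was at 79.0 to 84.5 in the epicardium and at 68.3, 28.6 and 54.9 in EPDCs (difference -30.9, SE 7.66, adjusted p = 0.0147). The others were Dsc3 (difference -17.9, adjusted p = 0.00605) and the desmosomal membrane protein gene Perp (difference -14.3, adjusted p = 0.000664). Perp, Evpl and Ppl, which encodes periplakin, were higher at E17.5 than at E11.5, by 9.70, 21.5 and 41.1 points. Of 21 other tight junction genes, 17 had a tested promoter, with 1 lower and 4 higher in EPDCs, and no test was made against those shares. F11r, which encodes the junctional adhesion molecule JAM-A, was lower (difference -24.3, SE 3.89, adjusted p = 0.00208), and Jam2 (14.4), Cldn5 (9.99), Cgnl1 (4.70) and Magi1 (4.67) were higher. Cldn5 is also one of the endothelial markers, of which Kdr and Sox18 were higher in EPDCs as well, and their part in its difference was not tested. Those higher at E17.5 than at E11.5 included Cldn4 by 45.6, Marveld3 by 39.6, Cldn2 by 21.3 and Cldn3 by 12.2 points, and Jam2 was lower, by -10.1 points. All 14 polarity genes had a tested promoter, with 3 lower and 2 higher in EPDCs. Prkcz, Crb1 and Llgl1 were lower in EPDCs, by -17.0, -28.5 and -4.70 points, and Crb2 and Mpp5 higher, by 10.6 and 1.99. Between stages Patj was higher at E17.5 by 12.46 points, and Crb1, Crb2 and Scrib were lower, by -39.04, -12.65 and -7.46.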

How the data were processed

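ATAC-seq peak lists of 9 libraries (10 samples, 2 of them technical replicates merged in 1 list) were used, with coordinates on mm10. According to the study's methods and the submitters' processing notes, reads were processed with the nf-core ATAC-seq pipeline and MACS2 2.2.9.1 called peaks per library, with their summits, using a q-value limit of 0.01. The deposited columns hold the fold enrichment over background as a ratio, the -log10 p-value and the -log10 q-value of each peak, and the position of its summit. Read counts were not used here, so sequencing depth behind a peak is unknown and no count model was fitted.

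Summits of all lists were merged into regions of 250 bp to either side that do not overlap, and regions with a summit in at least 3 libraries were tested. Each region took the percentile of its strongest summit among the 94909 strongest of the list, ranked by -log10 p. Differences were fitted over all regions with limma 3.58.1 (R 4.3.3) with a trended prior, 9 libraries in 3 groups and Benjamini-Hochberg adjustment over all 130905 regions. The spread measured is that between pooled-heart samples. The code was tested on simulated data. Genes came from the GENCODE mouse annotation (release M21), and words of 31 bases were counted over the RefSeq genome of the same build, both strands. Single regions were also compared by exact permutation. The genes named are the 10 members, their promoters, the called regions with the largest difference (up to 2 per gene and comparison), the Pkp2 element and other junction genes whose promoter was called. Regions beyond this rule (further Pkp2, Jup, Dsg2, Tjp1 and Cgn regions, the strongest Dsp region, the copies of Cgn sequence) were chosen after their values were seen. The members and gene lists were chosen with earlier results of these data known. Alternatives were other rankings, thresholds, overlaps and filters, leaving out each library, a block on replicate number and each epicardial stage alone. Those on regions found in every list, on starts of other genes and on repeated sequence were added after seeing the data. The promoter values of some genes of these lists are not reported here.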

Additional observations from a re-analysis of the deposited data

Results flagged for a closer look

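At the intronic Pard3 region 265 kb from its start, EPDCs stood on opposite sides of the epicardial stages. E11.5 values were 30.9, 36.9 and 27.2, all E17.5 values were 0, and EPDC values were 11.6, 23.9 and 9.34. EPDC minus E11.5 was -16.7 (adjusted p = 0.0224) and EPDC minus E17.5 was 14.95 (adjusted p = 0.0268), and the difference between these effects is the stage difference of -31.63 (adjusted p = 0.00124, limma).

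Summits off the standard chromosomes, which entered no comparison, numbered 268 in the E12.5 EPDC list and 263 and 252 in the E13.5 EPDC lists, against 0 in each of the 6 epicardial lists. They are data outside the regions compared, and the study's methods describe removal of mitochondrial reads. Their relation to the differences at the junction genes was not tested.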

How the results depend on the processing

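Of 100 alternative values for the 4 counts and the Pkp2 element, 90 kept the direction and side of the threshold or stayed within 1.5 times of the count. Leaving out each library gave 36 to 46 regions lower in EPDCs and 18 to 25 higher, 20 to 27 higher at E17.5 and 25 to 29 lower, and -58.4 to -46.4 points at the Pkp2 element. The exceptions among regions lower in EPDCs were 71 on a log2 scale of the list-scaled peak score, 19 whose groups did not overlap and 9 with a summit in all 9 libraries. Regions higher in EPDCs numbered 13 against E11.5 epicardium alone and 6 with a summit in all 9 libraries. Those higher at E17.5 numbered 11 with the replicate number as a block and 6 with a summit in all 9 libraries. Those lower at E17.5 numbered 46 by percentile within each library's own list, 43 on the log2 scale and 4 with a summit in all 9 libraries. Fewer regions can be counted under the last filter by its construction, and for the others the cause was not tested. The log2 scale divides by the sum of each list, and the largest -log10 p was 20589.5 to 70107.4 in the EPDC lists and at most 891.341 in the epicardial ones.

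The replicate block left 20 regions lower at E17.5. Same-numbered samples correlated at 0.02, 0.05 and -0.039 after removal of group means, so the numbers were not taken as pairs, and not every sample correlated best with its own number.

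For the 10 promoters, 291 alternative values kept direction and side, 27 lost a call, 11 gained one and 22 turned. EPDC minus epicardium turned for Pkp2 when ranked by fold enrichment (18.5, adjusted p = 0.0257), against E11.5 alone (2.86) and without E13.5 EPDC replicate 1 (leaving out each library gave -7.28, which was called, to 0.26). It turned for Dsp on the log2 scale (-0.09), against E17.5 alone (-7.44) and without the E12.5 library (-0.01, range up to 8.22), for Jup against E11.5 alone (-0.33) and without the E12.5 library (-0.47, range up to 1.08), for Dsg2 against E17.5 alone (-4.56) and for Ocln against E11.5 alone (12.4). E17.5 minus E11.5 turned for Jup (0.02) and Cgn (0.12) on the log2 scale. It turned for Dsc2 within own lists (-3.89), by interval overlap (-0.97) and without E17.5 replicate 3 (-0.11, range up to 3.86), and for Tjp1 by fold enrichment (9.27), without E11.5 replicate 1 (3.94, range down to -6.33), without E17.5 replicate 2 (2.39) and at any protein-coding start (5.18). For Cldn1 it turned within own lists (-2.20), without E11.5 replicate 2 (-0.40) and without E17.5 replicate 3 (-0.60, range up to 1.38). None of the differences that turned was called in the main comparison.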
